A study of Mus musculus with 22 samples.

Results

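Acute phase proteins were followed here through the liver transcripts of 10 genes: the serum amyloid A genes Saa1, Saa2 and Saa3, lipocalin-2 (Lcn2), the orosomucoid genes Orm1, Orm2 and Orm3, haptoglobin (Hp), the protease inhibitor Serpina3n and C-reactive protein (Crp). All 10 were found by symbol among the 45777 genes of the count tables of both cohorts, and all 10 passed the filter on low counts in each cohort. The 22 libraries are polyA RNA from livers of male wild-type C57BL/6J mice, labelled as biological replicates. An HFD cohort, labelled as its own batch, has 3 libraries from mice on normal diet (ND) with vehicle, labelled normal, and 4 on HFD with vehicle, labelled MASLD (fatty liver disease). Its other 4 libraries are from mice on HFD given DTMB by mouth at 10 mg/kg per day. An MCD cohort, a separate batch by its labels, has 4 ND vehicle, 4 MCD vehicle and 3 MCD DTMB libraries at that same dose, the disease groups labelled MASH (steatohepatitis). HFD and MCD are taken as high-fat and methionine- and choline-deficient diets, and DTMB is known here only by this code name.

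The acute phase response is the change in plasma protein output by which the liver answers infection, injury or inflammation. Interleukin-6, acting through STAT3, and interleukin-1, acting through NF-kB and C/EBP factors, are its best known drivers in hepatocytes. Positive acute phase proteins such as serum amyloid A go up in that response, while negative ones such as apolipoprotein A-I go down. In these bulk samples, more cells of a type and more RNA per cell cannot be told apart.

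Promoter sequences are shown for the 6 members that held a match to a C/EBP half-site pair (TTGCNNAA, either strand), in capitals. They are from RefSeq on GRCm38.p6 and run 5′ to 3′ over the 250 bases before the start site given there. The table covered 8 of the 10 members; Orm1 and Hp were not matched.
Saa1 (chr7:46742981-46743230, minus strand): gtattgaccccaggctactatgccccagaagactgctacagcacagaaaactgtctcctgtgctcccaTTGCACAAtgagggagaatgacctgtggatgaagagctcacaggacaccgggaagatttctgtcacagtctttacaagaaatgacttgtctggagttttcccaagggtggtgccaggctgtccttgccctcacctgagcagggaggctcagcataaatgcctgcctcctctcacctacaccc
Saa2 (chr7:46751583-46751832, plus strand): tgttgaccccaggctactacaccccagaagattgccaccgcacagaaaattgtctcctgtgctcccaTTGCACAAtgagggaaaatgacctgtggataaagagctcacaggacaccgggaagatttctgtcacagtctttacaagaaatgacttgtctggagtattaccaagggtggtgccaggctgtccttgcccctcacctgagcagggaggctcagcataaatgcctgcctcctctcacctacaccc
Saa3 (chr7:46715677-46715926, minus strand): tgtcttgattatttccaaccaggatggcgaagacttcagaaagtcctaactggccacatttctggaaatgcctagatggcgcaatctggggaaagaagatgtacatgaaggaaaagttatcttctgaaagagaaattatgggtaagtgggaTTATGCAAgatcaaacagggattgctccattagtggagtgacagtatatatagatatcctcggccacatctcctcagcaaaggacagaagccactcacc
Lcn2 (chr2:32387740-32387989, minus strand): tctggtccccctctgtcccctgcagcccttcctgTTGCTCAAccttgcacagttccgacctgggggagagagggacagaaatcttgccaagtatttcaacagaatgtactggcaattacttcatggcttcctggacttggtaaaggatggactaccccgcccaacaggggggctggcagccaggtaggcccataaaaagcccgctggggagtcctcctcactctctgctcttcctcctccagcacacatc
Orm2 (chr4:63362199-63362448, plus strand): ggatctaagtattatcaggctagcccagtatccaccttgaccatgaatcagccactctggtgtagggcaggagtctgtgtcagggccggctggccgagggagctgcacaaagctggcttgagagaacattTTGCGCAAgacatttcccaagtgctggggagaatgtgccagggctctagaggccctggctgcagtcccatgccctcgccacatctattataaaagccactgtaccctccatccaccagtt
Orm3 (chr4:63355908-63356157, plus strand): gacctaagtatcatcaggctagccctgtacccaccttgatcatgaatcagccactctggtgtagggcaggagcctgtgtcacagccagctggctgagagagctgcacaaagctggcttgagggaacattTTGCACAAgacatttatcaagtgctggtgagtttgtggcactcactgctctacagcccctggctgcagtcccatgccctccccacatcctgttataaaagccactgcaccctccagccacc
The pair was found in 6 of 8 member promoters and in 10.8% of all 32851 promoters, each searched from 250 bases before to 50 bases after the start. Saa1 and Saa2 carried the same letters, TTGCACAA, at -182 to -175 and -183 to -176. Orm3 also carried TTGCACAA (-121 to -114), against TTGCGCAA in Orm2 (-120 to -113), TTGCTCAA in Lcn2 (-216 to -209) and TTATGCAA in Saa3 (-99 to -92). The Serpina3n and Crp windows held none. The type 2 acute phase element CTGGGAA was found in Orm3 alone among the members, at 10 to 16 after the start, and in 11.1% of all promoters. The STAT palindrome TTCNNNGAA (8.30% of promoters) and the NF-kB consensus (4.51%) were not found in these windows of the 8 members. A match is a run of letters and not a measured binding site.

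The Saa genes are neighbours, as are the Orm genes, and they share transcript sequence to different degrees. On chromosome 7, Saa3 (46711998-46719615, minus strand), Saa1 (46740497-46743181, minus strand) and Saa2 (46751833-46754313, plus strand) lie in that order, and Saa1 and Saa2 face away from each other across 8651 bases with no gene between. The RefSeq starts used for the Saa1, Saa3, Orm3 and Serpina3n promoters lie inside the spans of these genes, so their windows overlap the gene in part or, for Saa3, in full. Orm1 (63344556-63348163), Orm3 (63356069-63359506) and Orm2 (63362449-63365877) follow each other on the plus strand of chromosome 4. Aligned end to end, the printed Saa1 and Saa2 promoters were the same at 95.6% of 249 aligned bases, and those of Orm2 and Orm3 at 89.4% of 245. Bases set against gaps are not counted, and pairs from different chromosomes also scored high. Saa1 was the same as Lcn2 at 71.3%, Orm3 at 72.9% and Serpina3n at 70.9% of aligned bases. Of the 50-base stretches of the principal Saa1 transcript, 13.2% were also in Saa2, and 20.4% of those of Orm1 were in Orm2. Saa3 shared less, 1.78% with Saa1, as did Orm3, 2.21% with Orm1 and 3.59% with Orm2. How counting treated shared reads is not stated, so values of single Saa and Orm genes are uncertain. The other members lie apart: Lcn2 on chromosome 2 (32384637-32387739, minus strand), Hp on chromosome 8 (109575128-109579172, minus strand), Serpina3n on chromosome 12 (104406646-104414334, plus strand) and Crp on chromosome 1 (172698056-172699966, plus strand).

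Library totals ran from 50.1 to 66.7 M counts. Levels are CPM (counts scaled to a common total) over the TMM-scaled library size, and each cohort was scaled by itself, which leaves no common scale for levels across cohorts. Tests are edgeR's quasi-likelihood test with Benjamini-Hochberg adjustment over all genes of a comparison, called at an adjusted p under 0.05, and SE is the standard error. Hepatocyte markers were abundant in every library, summing to 80120 to 119400 CPM. Transcripts of pancreatic acinar cells (a list of 16 digestive enzyme genes) summed above 100 CPM in 6 libraries: ND replicates 1 and 3, HFD vehicle replicates 1 and 4 and HFD DTMB replicate 3 of the HFD cohort, and ND replicate 4 of the MCD cohort. The other 16 libraries had at most 25.0 CPM. Member values are therefore also given without those libraries.

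On normal diet the members spanned 3 orders of magnitude per length of transcript. As CPM per kilobase of the principal transcript in the HFD cohort's ND livers (mean ± SD, n = 3), Hp stood highest at 2288 ± 261. Orm1 followed at 514.7 ± 19.7, then Crp at 228.0 ± 21.4 and Serpina3n at 138.1 ± 21.9. The other members were lower: Saa1 was at 27.1 ± 4.19, Orm2 at 17.9 ± 2.81, Saa2 at 11.2 ± 2.86, Saa3 at 5.48 ± 1.53, Lcn2 at 3.96 ± 0.729 and Orm3 at 1.82 ± 0.658. Saa3 and Lcn2 in that order did not differ beyond their spread. The ND livers of the MCD cohort gave the same 4 genes at the top, from Hp at 1390 ± 191 to Serpina3n at 145.0 ± 37.8 (n = 4).

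**Figure D1:**
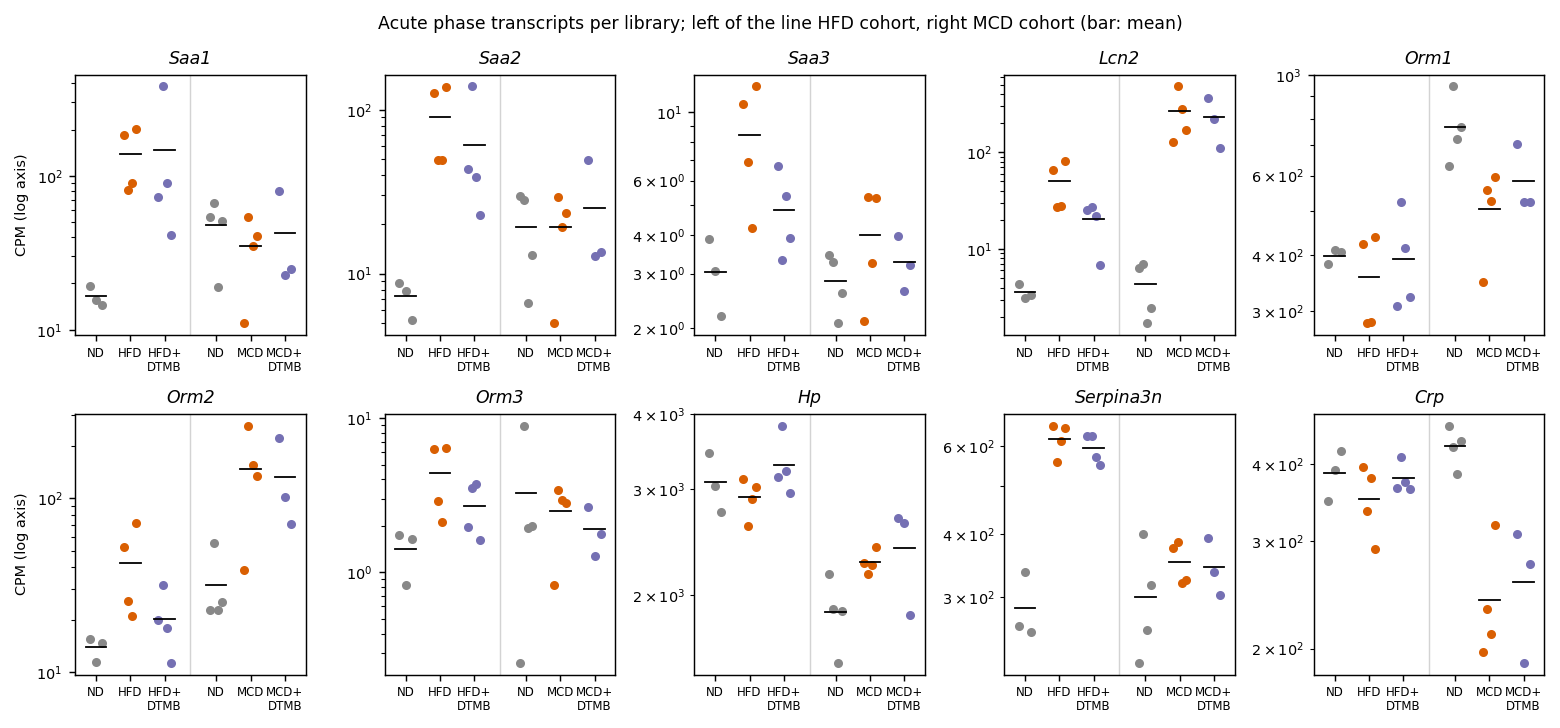
CPM of each member (log axis) in every library, one panel per gene, with the HFD cohort left of the grey line and the MCD cohort right of it; points are libraries and bars are group means. Lcn2 separates both diets from normal diet, while Saa1 and Saa2 do so only in the HFD cohort, and Hp stays within 1541 to 3826 CPM throughout.

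The first comparison asked which acute phase transcripts differed on HFD. Of the 10 members, 7 rose (Saa1, Saa2, Saa3, Lcn2, Orm2, Orm3 and Serpina3n) and 0 fell, against 15.2% of all 15597 genes tested called higher and 12.6% called lower. In each of the 7, every HFD vehicle library was above every ND library. This is no separate evidence, since the test that picked them used the same libraries. How many of all genes separate in this way was not counted. The members that were most abundant on normal diet, Hp, Orm1 and Crp, did not pass the test.

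Saa1 and Saa2 encode the serum amyloid A proteins that travel on high-density lipoprotein during inflammation. Saa1 was at 19.4, 15.7 and 14.5 CPM in the ND livers and at 184, 81.2, 89.7 and 203 CPM on HFD. That is a rise of 3.08 ± 0.69 (log2, SE; 8.44-fold, adjusted p = 0.00628). Saa2 was at 8.83, 7.85 and 5.22 CPM on ND and at 127, 49.7, 49.2 and 137 CPM on HFD, a rise of 3.64 ± 0.64 (12.4-fold, adjusted p = 0.0016). For both genes HFD replicates 1 and 4 stood above replicates 2 and 3. Saa2 counts were 0.361 to 0.501 of Saa1 counts in the ND livers and 0.548 to 0.691 on HFD. Saa3, a form known mainly from macrophages and other cells outside the hepatocyte, stayed at low levels of 3.89, 3.05 and 2.19 CPM on ND and 10.6, 6.91, 4.23 and 12.1 CPM on HFD. It rose by 1.47 ± 0.35 (2.77-fold, adjusted p = 0.00916).

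Lcn2 encodes a protein that binds bacterial siderophores and so withholds iron, made by stressed hepatocytes and stored in neutrophil granules. It had the largest rise of the members on HFD. Its level was 4.38, 3.15 and 3.33 CPM on ND and 65.6, 27.1, 27.6 and 81.7 CPM on HFD, a rise of 3.80 ± 0.53 (13.9-fold, adjusted p = 0.000394). Of 14 neutrophil markers listed, 6 were tested in this comparison and none was called. The summed level of the list was 1.32 to 3.14 CPM on ND and 1.65 to 5.08 CPM on HFD, highest in replicates 1 and 4. Summed macrophage markers were 138 to 218 CPM on ND and 204 to 544 CPM on HFD, with 7 of 14 called higher. The part of these cells in the member values was not tested.

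Orosomucoids are carrier glycoproteins of plasma that bind drugs and lipids. The dominant form, Orm1, was at 381, 410 and 406 CPM on ND and overlapped with HFD at 422, 282, 285 and 438 CPM (log2 difference -0.16 ± 0.20, adjusted p = 0.582). The minor forms differed: Orm2 was at 15.6, 11.4 and 14.7 CPM on ND and at 52.3, 25.8, 21.1 and 71.7 CPM on HFD, a rise of 1.62 ± 0.42 (3.08-fold, adjusted p = 0.0134). Orm3 was the scarcest member, at 0.825 to 1.75 CPM on ND and 2.11 to 6.42 CPM on HFD, and rose by 1.64 ± 0.45 (adjusted p = 0.017). Without ND replicate 2 neither was called, with Orm2 at 1.5 ± 0.50 (adjusted p = 0.0548) and Orm3 at 1.38 ± 0.49 (adjusted p = 0.0689).

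Serpina3n, a serine protease inhibitor related to human alpha-1-antichymotrypsin, had the smallest SE of the 7. It was at 263, 337 and 255 CPM on ND and at 659, 557, 614 and 653 CPM on HFD, and rose by 1.12 ± 0.11 (2.18-fold, adjusted p = 3.47e-05). Its 4 HFD libraries lay within 557 to 659 CPM, and here too replicates 1 and 4 were the highest. Hp, the scavenger of free haemoglobin, was at 2747 to 3446 CPM on ND and 2603 to 3123 CPM on HFD (-0.08 ± 0.11, adjusted p = 0.611). Crp, a pentraxin that is only a modest acute phase reactant in mice, was at 348 to 420 CPM on ND and 291 to 396 CPM on HFD (-0.14 ± 0.10, adjusted p = 0.35).

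HFD vehicle replicates 1 and 4 had the 2 highest levels of that group in every member but Crp, and these are also its 2 libraries with acinar transcripts (491 and 3259 CPM). Within the HFD cohort's libraries free of acinar transcripts, Lcn2 was at 3.15 CPM in the 1 ND library and at 27.1 and 27.6 CPM on HFD, and Saa1 at 15.7 CPM against 81.2 and 89.7 CPM. Within those with acinar transcripts, Lcn2 was at 4.38 and 3.33 CPM on ND and at 65.6 and 81.7 CPM on HFD, and Saa1 at 19.4 and 14.5 CPM against 184 and 203 CPM. Without the acinar libraries, 1 ND, 2 HFD vehicle and 3 HFD DTMB libraries are left. The 7 calls could not be checked there, since a lone ND library shows no spread. Sizes alone are given, with that library assumed to vary like the other groups. The rise of Lcn2 was then 3.11 ± 0.79, that of Saa1 2.43 ± 1.24, of Saa2 2.64 ± 1.01 and of Saa3 0.86 ± 0.47. For Orm2 it was 1.03 ± 0.51 and for Orm3 1.59 ± 0.52. Each of these rises was smaller than with all libraries. Serpina3n was at 337 CPM in that ND library and at 557 and 614 CPM in the 2 HFD vehicle libraries. Its rise was at least 0.79 in every alternative fit.

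**Figure D2:**
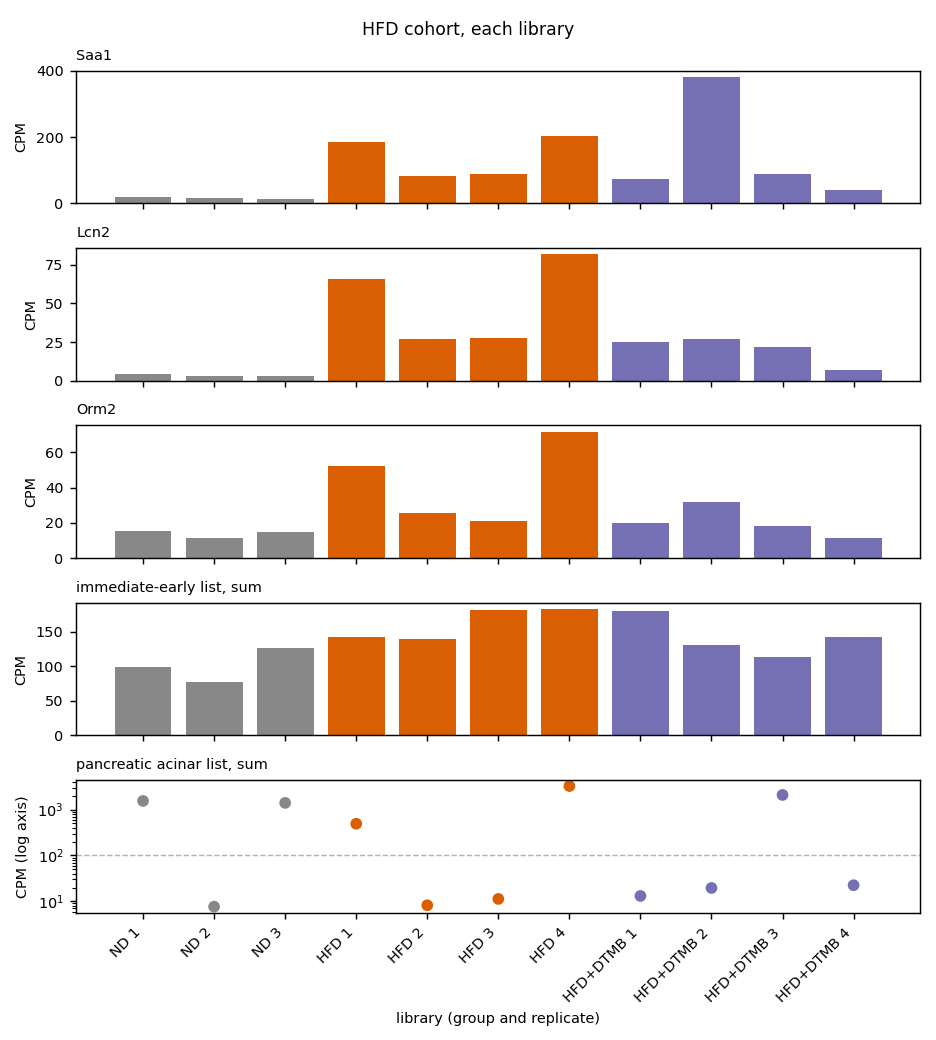
Levels in each library of the HFD cohort: CPM of Saa1, Lcn2 and Orm2 and of the summed immediate-early list (bars from 0), and the summed acinar list on a log axis with a dashed line at 100 CPM. HFD replicates 1 and 4 are highest of their group in the 3 genes, and HFD DTMB replicate 2 holds the highest Saa1 level at 381 CPM.

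Other genes of the response were read from lists of other positive and of negative acute phase genes, signalling genes, transcription factors, and receptors and partners of the member proteins. Of 27 other positive acute phase genes tested, 12 rose and 2 fell on HFD, with a median log2 difference of 0.27 beside 0.02 over all genes. Saa4, the constitutive serum amyloid A gene of the same cluster, rose from 103 to 398 CPM (1.95 ± 0.22, adjusted p = 8.94e-05), and Steap4, a metalloreductase, rose by 2.07 ± 0.23 (adjusted p = 7.73e-05). Nnmt, nicotinamide N-methyltransferase, fell by 0.91 (SE 0.09, adjusted p = 4.9e-05). Of 16 negative acute phase genes 3 rose and 4 fell, among them Serpina6 (corticosteroid-binding globulin; 1.40 ± 0.14, adjusted p = 5.53e-05) upwards and Apom (-0.76 ± 0.12, adjusted p = 0.000855) downwards.

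Upstream of the members, 3 of 29 interleukin-6 and interleukin-1 signalling genes rose and 4 fell on HFD. Lifr, a receptor subunit for leukaemia inhibitory factor, fell by 0.49 (SE 0.09, adjusted p = 0.0026), and Il22ra1, a receptor chain for interleukin-22, fell by 1.03 (SE 0.24, adjusted p = 0.00769). Of 15 transcription factors of the response, 4 rose and 2 fell, with Hnf4a down (-0.55 ± 0.07, adjusted p = 0.000277) and Klf6 up (0.78 ± 0.17, adjusted p = 0.00541). Of 16 receptors and partners of the member proteins, 5 rose and 0 fell, among them Tlr2 (1.78 ± 0.39, adjusted p = 0.00584) and Cd36 (1.38 ± 0.23, adjusted p = 0.0012). Of the 8 other Serpina3 genes tested, 2 rose and 1 fell: Serpina3k, far more abundant than Serpina3n, went from 13430 to 6208 CPM (-1.11 ± 0.17, adjusted p = 0.000579). Immediate-early genes, which also respond to tissue handling, had 6 of 13 higher, and their part in the member values was not tested.

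DTMB was next compared with vehicle on HFD. None of the 10 members passed edgeR's test, with 3 at an unadjusted p under 0.05 (Lcn2, Orm2 and Saa3, all lower), where 4796 of all 15597 genes were at an unadjusted p under 0.05. Over all genes 6.64% were called higher and 6.04% lower. DESeq2 called 2 members lower, Saa3 and Lcn2, and edgeR with library size alone called Lcn2 and Orm2 lower. Over all genes these settings called 3028 and 2799 of 15597 in either direction. This comparison uses the same HFD vehicle libraries as the diet comparison.

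Lcn2 was at 25.1, 27.1, 21.7 and 6.87 CPM with DTMB, beside 65.6, 27.1, 27.6 and 81.7 CPM with vehicle. The difference was -1.32 ± 0.42 (log2, adjusted p = 0.0597), and the groups met at 27.1 CPM. DESeq2 gave an adjusted p of 0.0414. The edgeR fits that left out 1 library gave differences of -1.53 to -0.99. Their adjusted p ran from 0.0336, without HFD vehicle replicate 3, to 0.169. Without the acinar libraries the difference was -0.48 ± 0.48. Orm2 showed a similar layout, with 19.9, 31.6, 17.96 and 11.3 CPM under DTMB and a difference of -1.08 ± 0.37 (adjusted p = 0.0752; -0.17 ± 0.36 without the acinar libraries). Saa3 was at 6.70, 3.32, 5.35 and 3.91 CPM with DTMB (-0.81 ± 0.31, adjusted p = 0.104). Orm3 was at 1.62 to 3.72 CPM with a difference of -0.72 ± 0.39 (adjusted p = 0.233).

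Saa1 with DTMB was at 72.5, 381, 89.7 and 41.6 CPM, so that 1 library exceeded every vehicle library and the others lay at 89.7 CPM or below, near or under the lower vehicle pair. The difference was 0.07 ± 0.57 (adjusted p = 0.949), and it became -1.05 ± 0.35 (adjusted p = 0.0867) without DTMB replicate 2. Saa2 was at 43.3, 139, 38.7 and 22.7 CPM (-0.58 ± 0.51, adjusted p = 0.473). Replicate 2 was the highest of its group in 8 of the 10 members but the lowest in Saa3. Serpina3n, at 628, 629, 572 and 549 CPM with DTMB, overlapped with HFD vehicle (-0.06 ± 0.10, adjusted p = 0.696). Hp (0.18 ± 0.10, adjusted p = 0.248), Orm1 (0.14, adjusted p = 0.645) and Crp (0.11, adjusted p = 0.462) did not pass the test either.

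Set against normal diet, the HFD DTMB livers had 4 members higher and 0 lower, where 15.7% and 13.5% of all genes were called higher and lower. Saa1 was higher by 3.15 ± 0.69 (8.86-fold, adjusted p = 0.00519) and Saa2 by 3.06 ± 0.62 (8.33-fold, adjusted p = 0.00333). Lcn2 was higher by 2.48 ± 0.50 (5.57-fold, adjusted p = 0.00332) and Serpina3n by 1.06 ± 0.11 (2.09-fold, adjusted p = 4.23e-05). Saa3 (0.66, adjusted p = 0.181), Orm2 (0.54, adjusted p = 0.357) and Orm3 (0.93, adjusted p = 0.141) did not pass the test here. The ND libraries are shared with the diet comparison. Without the acinar libraries 1 ND library is left, so these calls could not be checked there. Saa1 was then higher by 3.38, Saa2 by 3.11 and Lcn2 by 2.63.

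In the lists, 5 of 16 negative acute phase genes were higher with DTMB than with vehicle on HFD and 0 lower. Apom rose by 0.57 (SE 0.11, adjusted p = 0.0134), Apoa1, the main protein of high-density lipoprotein, by 0.58 (SE 0.14, adjusted p = 0.0219), and Fetub by 0.44 (SE 0.11, adjusted p = 0.0232). Other positive acute phase genes had 2 higher and 2 lower of 27, with Nnmt up (0.76 ± 0.09, adjusted p = 0.0041) and Steap4 down (-0.67 ± 0.20, adjusted p = 0.045). Receptors and partners of the member proteins had 0 higher and 3 lower of 16: the receptors Tlr2 (-1.75 ± 0.35, adjusted p = 0.0143) and Tlr4 (-0.80 ± 0.24, adjusted p = 0.049), and Hmox1, the haem-degrading enzyme haem oxygenase-1 and no receptor (-0.78 ± 0.22, adjusted p = 0.0412). Signalling genes had 4 higher and 3 lower of 29, and Il1b, at 0.339 CPM with DTMB and 1.28 CPM with vehicle, fell by 1.91 (SE 0.40, adjusted p = 0.016). Of the 15 transcription factors 2 rose, Cebpa (0.40 ± 0.07, adjusted p = 0.00987) and Hnf4a (0.37 ± 0.07, adjusted p = 0.011), and 2 fell, among them Fos (-1.26 ± 0.29, adjusted p = 0.0198). Without the acinar libraries, 0 genes in all were called for DTMB on HFD by edgeR, with 2182 at an unadjusted p under 0.05.

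**Figure D3:**
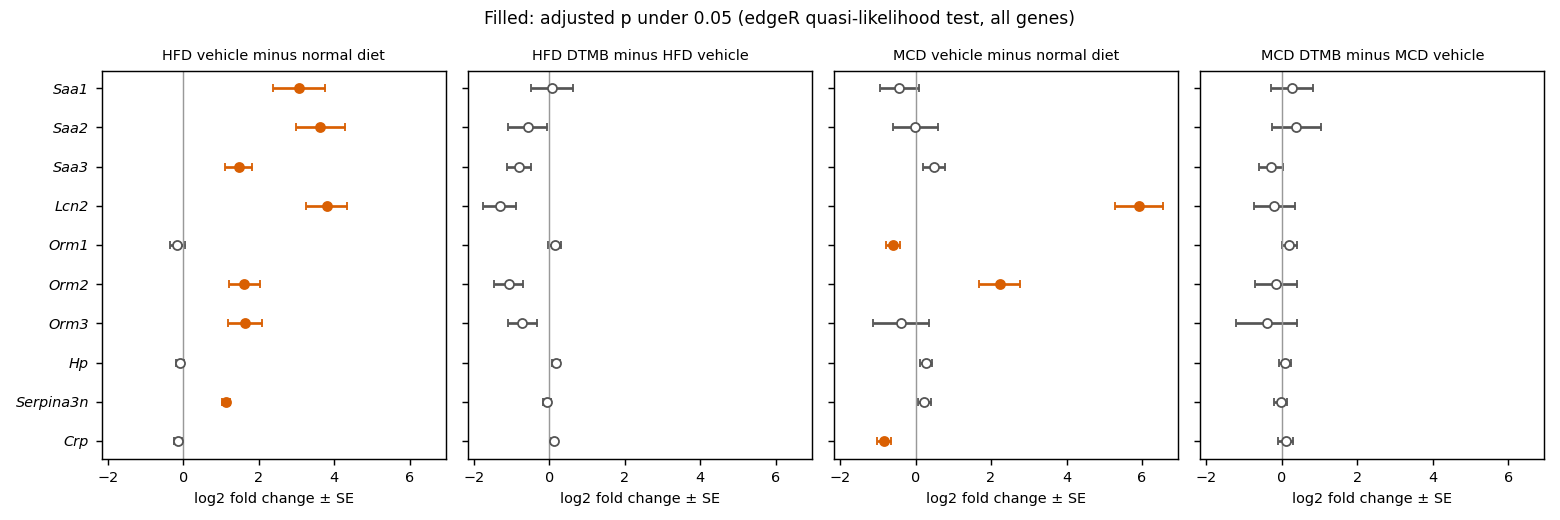
Log2 fold change of each member with its SE in 4 comparisons; filled orange points passed the test. On HFD 7 members lie to the right of 0 as called points, on MCD Lcn2 and Orm2 lie to the right and Orm1 and Crp to the left, and neither DTMB panel has a called point.

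On MCD, 4 members passed the test. Lcn2 and Orm2 rose and Orm1 and Crp fell, so that 2 of 10 were called higher and 2 lower, beside 20.3% and 21.0% of all 16037 genes tested. Saa1 and Saa2 did not pass the test. Scaling matters in this cohort: with library size alone in place of TMM, the median log2 difference of all genes moved from 0.00 to 0.47 (0.14 for HFD diet and -0.17 for HFD DTMB against vehicle), and changes are given on the TMM scale. With library size alone, 5 members were called higher and 0 lower, where 8853 of all 16037 genes were called in either direction.

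Lcn2 was at 6.38, 6.93, 1.70 and 2.48 CPM in the ND livers and at 128, 478, 282 and 168 CPM on MCD. It rose by 5.92 ± 0.63 (60.4-fold, adjusted p = 2.93e-05), with no overlap between groups. Summed neutrophil markers moved with it, from 0.993 to 2.75 CPM on ND to 2.85 to 7.89 CPM on MCD. Only 7 of the 14 listed passed the filter on low counts, which scarce genes can pass through the group where they are high. Of the 7 tested 5 rose, among them S100a8 (2.95 ± 0.60, adjusted p = 0.00231), S100a9 (2.16 ± 0.49, adjusted p = 0.00457) and Mmp8 (3.61 ± 0.86, adjusted p = 0.00584). Macrophage markers summed to 199 to 607 CPM on ND and 544 to 1423 CPM on MCD, with 7 of 14 higher. The part of these cells in the Lcn2 level was not tested.

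**Figure D4:**
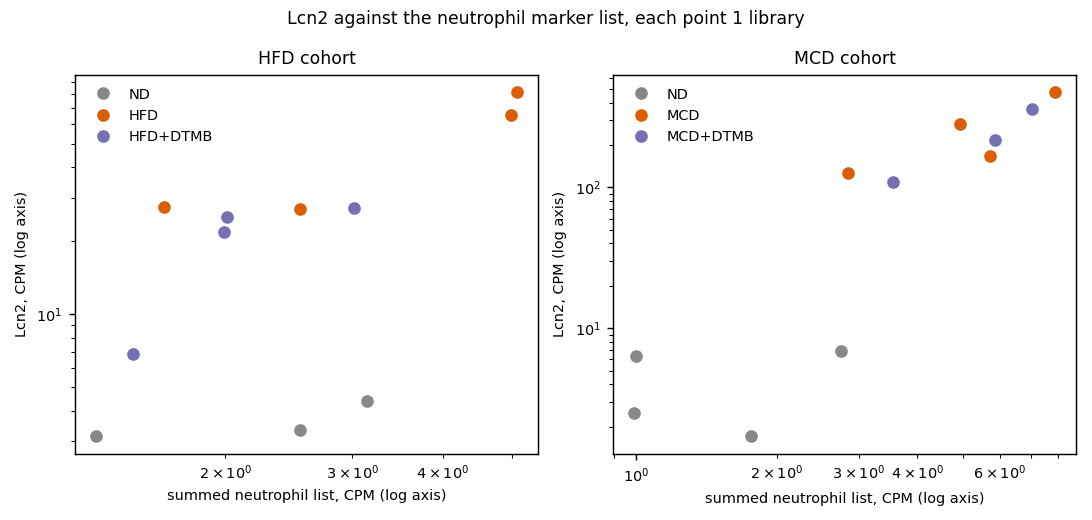
Lcn2 CPM against the summed CPM of the neutrophil marker list (both log axes), each point 1 library, for the HFD cohort (left) and MCD cohort (right). In the MCD cohort all 7 disease-diet libraries lie above 100 CPM of Lcn2 with 2.85 to 7.89 CPM of neutrophil markers, and no ND library exceeds 6.93 CPM of Lcn2.

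Orm1 and Orm2 went opposite ways on MCD. Orm1 was at 631, 945, 724 and 768 CPM on ND and 348, 557, 527 and 596 CPM on MCD, and fell by 0.60 (SE 0.18, adjusted p = 0.0218). Orm2 was at 22.7, 55.6, 22.9 and 25.2 CPM on ND and 38.6, 262, 156 and 134 CPM on MCD, a rise of 2.23 ± 0.54 (4.68-fold, adjusted p = 0.00614). MCD replicate 1, the lowest in 8 of the 10 members, lay below ND replicate 2, so the groups of Orm2 overlapped. Orm2 counts were 0.0316 to 0.0588 of Orm1 counts on ND and 0.111 to 0.471 on MCD. Orm3 was at 0.259 to 8.93 CPM on ND and 0.822 to 3.42 CPM on MCD (-0.39 ± 0.74, adjusted p = 0.699). Without ND replicate 2 the difference in Orm1 was -0.48 ± 0.19 and not called (adjusted p = 0.0653), and on the library-size scale it was -0.13 ± 0.17 (adjusted p = 0.545).

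Crp fell from 463, 427, 385 and 437 CPM on ND to 198, 232, 211 and 319 CPM on MCD, a difference of -0.83 ± 0.18 (adjusted p = 0.00277) with no overlap. On the library-size scale it was -0.38 ± 0.16 (adjusted p = 0.0591). Hp lay at 1541 to 2166 CPM on ND and 2169 to 2398 CPM on MCD; every MCD library was above every ND library, yet the difference of 0.28 ± 0.15 did not pass the test (adjusted p = 0.151). Scaled by library size, Hp was called higher (0.74 ± 0.15, adjusted p = 0.00145), as were Serpina3n (0.71 ± 0.16, adjusted p = 0.00302) and Saa3 (0.94 ± 0.30, adjusted p = 0.0181). With TMM, Serpina3n was at 222, 400, 258 and 317 CPM on ND and 376, 386, 319 and 325 CPM on MCD (0.23 ± 0.17, adjusted p = 0.296).

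The serum amyloid A genes had no called difference on MCD. Saa1 was at 53.8, 67.05, 19.1 and 50.7 CPM on ND and 11, 54.0, 34.8 and 40.9 CPM on MCD (-0.44 ± 0.52, adjusted p = 0.523). Saa2 was at 29.7, 28.2, 6.66 and 12.9 CPM on ND and 4.97, 29.6, 19.3 and 23.5 CPM on MCD (0.997-fold, adjusted p = 0.997). In both, the spread among ND libraries covered most of the MCD values. Saa3 was at 2.07 to 3.46 CPM on ND and 2.11 to 5.32 CPM on MCD (0.49, adjusted p = 0.198).

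The lists on MCD were read on the TMM scale alone. With library size alone, the median of all genes was 0.47 in place of 0.00. Over all genes, 20.3% were called higher and 21.0% lower with TMM. Among the lists, 9 of 29 other positive acute phase genes rose and 9 fell. Apcs, the serum amyloid P gene and the main acute phase pentraxin of mice, went from 46.8 to 506 CPM (3.43 ± 0.40, adjusted p = 5.37e-05). Saa4 fell by 2.05 (SE 0.22, adjusted p = 3.13e-05) and Mbl2, a mannose-binding lectin, fell by 3.14 (SE 0.37, adjusted p = 6.28e-05). Negative acute phase genes had 2 higher and 10 lower of 16, with a median of -0.59, and the 3 of smallest p were Fetub (-1.38 ± 0.12, adjusted p = 6.44e-06), Itih1 (-1.68 ± 0.15, adjusted p = 6.53e-06) and Apoa1 (-1.56 ± 0.17, adjusted p = 3.88e-05). Signalling genes had 7 higher and 6 lower of 31. Lifr (-2.44 ± 0.18, adjusted p = 2.28e-06) and Il1rap, the coreceptor of interleukin-1 (-2.06 ± 0.18, adjusted p = 5.83e-06), fell, and Il10rb rose (1.46 ± 0.19, adjusted p = 0.000147). Transcription factors had 5 higher and 4 lower of 15, led by Atf3, from 0.993 to 20.9 CPM (4.39 ± 0.37, adjusted p = 5.16e-06). Receptors and partners had 7 higher and 2 lower of 16, led by Cd36 (3.58 ± 0.13, adjusted p = 7.52e-08). Serpina3k fell from 12430 to 1250 CPM (-3.31 ± 0.21, adjusted p = 8.62e-07).

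DTMB on MCD gave no called member by edgeR, 0 at an unadjusted p under 0.05, and 0 by DESeq2. Over all genes 0.00624% were called higher and 0% lower. Lcn2 was at 363, 219 and 110 CPM with DTMB, inside the span of the vehicle libraries at its upper end and just below it at the lower (-0.19, adjusted p = 0.98). Orm2 was at 224, 102 and 71.6 CPM (-0.16, adjusted p = 0.985) and Saa1 at 79.2, 22.7 and 24.9 CPM (0.26, adjusted p = 0.972). Replicate 1 was the highest of the 3 DTMB libraries in all 10 members. Against normal diet, Lcn2 (5.72 ± 0.64, adjusted p = 5.62e-05) and Orm2 (2.07 ± 0.56, adjusted p = 0.0144) were higher and Crp was lower (-0.73 ± 0.19, adjusted p = 0.0122) in MCD DTMB livers, with 16.2% and 16.4% of all genes called higher and lower. Orm2 was not called without DTMB replicate 1 (1.46, adjusted p = 0.0844), nor Crp without DTMB replicate 2 (-0.55, adjusted p = 0.0545) or with library size alone (-0.37, adjusted p = 0.108). Library size alone called 4 members higher and 0 lower, and 6900 of all 16037 genes in either direction.

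The diet effects of both cohorts were then compared in a fit of all 22 libraries. Of the 10 members 5 differed, against 35.3% of 16541 genes tested. The HFD effect was above the MCD effect for Saa1 by 3.49 ± 0.91 (log2, adjusted p = 0.00553), for Saa2 by 3.61 ± 0.94 (adjusted p = 0.00534), for Serpina3n by 0.86 ± 0.21 (adjusted p = 0.00289) and for Crp by 0.66 ± 0.22 (adjusted p = 0.0219). For Lcn2 the MCD effect was the larger, with a difference of -2.15 ± 0.77 (adjusted p = 0.0353), a call lost in 8 of the 15 fits that left out 1 library (adjusted p of 0.0503 to 0.0896). The Crp difference was 0.37 ± 0.20 (adjusted p = 0.145) with library size alone and 0.59 ± 0.24 (adjusted p = 0.0669) without ND replicate 1 of the HFD cohort. The effects of Orm2, at 1.61 ± 0.55 on HFD and 2.24 ± 0.51 on MCD, did not pass the test of the difference (adjusted p = 0.527). Diet and cohort cannot be told apart here, since each diet was given in 1 batch. Without the acinar libraries 1 ND library is left in the HFD cohort, so these calls could not be checked there. The difference was then 2.81 ± 1.44 for Saa1, 0.50 ± 0.32 for Serpina3n and -2.65 ± 1.09 for Lcn2. For the DTMB effects, no member passed edgeR's test of a difference between cohorts, nor did any gene (0% called, 1415 at an unadjusted p under 0.05). DESeq2 called 38 genes and 0 members. The SE was wide, with differences of -1.11 ± 0.74 for Lcn2, -0.95 ± 0.89 for Saa2 and -0.91 ± 0.71 for Orm2.

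**Figure D5:**
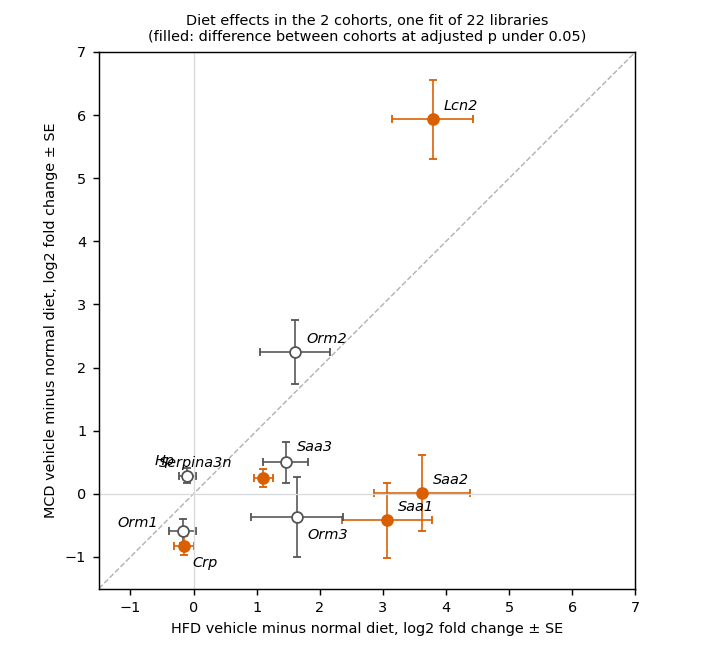
Log2 fold change with SE of each member on MCD (vertical) against HFD (horizontal), each diet against its own normal-diet group; filled points differed between cohorts and the dashed line marks equal effects. Saa1 and Saa2 lie far to the right near 0 on the vertical axis, and Lcn2 lies above the line at 3.79 on HFD and 5.93 on MCD.

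Within groups the members moved together to different degrees. After subtraction of group means, Saa1 and Saa2 had a Pearson r of 0.965 over the 11 libraries of the HFD cohort and 0.967 over the 11 of the MCD cohort (log2 CPM). The r of Lcn2 with Orm2 was 0.911 and 0.764, and that of Saa1 with Lcn2 0.763 and 0.783. Saa3 was tied to Saa1 with r of 0.877 in the MCD cohort but 0.121 in the HFD cohort. Of the members not called on HFD, Orm1 with Saa1 had an r of 0.872 and 0.794, and Hp with Saa1 0.842 and 0.467. Crp with Lcn2 had an r of -0.126 and 0.135, and Crp with Saa3 -0.570 and 0.739. These values describe libraries that share scaling factors and, for Saa1 and Saa2, sequence.

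Genes of most similar pattern were ranked by the smaller of the 2 Pearson correlations of log2 CPM with a member, 1 over the 11 libraries of each cohort, among 11083 genes, with the group differences included. For Lcn2 they were Psd4 (r of 0.946 in the HFD cohort and 0.958 in the MCD cohort), Slc22a27 and Ifi27l2b. Orm2 was followed most closely by Evl (0.928 and 0.923), Itgb2 and Ifi30, and Orm3 by Folr2 (0.900 and 0.932), Ctla2b and Aif1. Serpina3n had Cenpm (0.953 and 0.910), Eif4e3 and Slc50a1. Saa1 and Saa2 both had Ikbkb, a kinase gene of the NF-kB pathway, first, with r of 0.80 and 0.704 for Saa1 and 0.844 and 0.719 for Saa2, and Hp had Itih3 (0.739 and 0.858) and the metallothionein genes Mt1 and Mt2. Saa3 had Fam49b, Fkbp7 and Mndal, Orm1 had Mob3c first, and Crp had Glt28d2, Casd1 and Selenbp2.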

How the data were processed

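Liver RNA of 22 libraries was analysed from the raw counts per gene that the authors deposited, whole numbers without normalization. Per the labels' protocols, RNA with an integrity number above 7 went into a stranded mRNA kit. The mm10 build and StringTie 2.1.3b, HISAT2 2.1.0, Trimmomatic 0.38 and FastQC 0.11.7 are named in the submitters' processing notes, without roles or settings. Of 45777 genes, 20101 had no count.

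Counts were tested with edgeR 4.0.16 (R 4.3.3): filterByExpr, TMM, estimateDisp, glmQLFit and glmQLFTest, each cohort fitted alone with its 3 groups and both together for differences between cohorts. SE is the log2 fold change over the root of F. The members, the other lists and the tests were chosen with earlier results of these data known, so they are not independent evidence. All members were named, with at most 3 called genes of smallest p per list and comparison and up to 3 most similar genes per member, not all of which are reported here. Alternatives were DESeq2 1.42.0, limma-voom 3.58.1, RLE factors, library size alone, no count filter or a stricter one (3 libraries over 1 CPM), fits of the compared groups alone or of both cohorts, a log2 cutoff of 1, a replicate block, leaving out each library, and leaving out libraries above 100 CPM of acinar transcripts. Within-group r of log2 CPM was 0.967 to 0.985 across genes, and no pair of libraries of a group, the only pairs compared, agreed within sampling noise. The labels say biological replicates but not separate animals, so p-values measure the spread between these libraries.

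On simulated counts, 50 genes each, drawn at random, were changed 1.5-fold, 2-fold, 4-fold and 8-fold in each comparison. Of those changed 2-fold, 74% were recovered for HFD diet (among 15388 genes tested) and 68% for HFD DTMB (15354). For MCD diet 48% were recovered (15713) and for MCD DTMB 38% (15673). Except for MCD DTMB, fewer genes were changed than the real tests called, and the adjusted p depends on that share. The drawn genes were not matched to the members in level or spread, so these shares are not the members' own chance of being called. Lengths are of GENCODE principal transcripts, positions and promoters of RefSeq GRCm38.p6, which matched 45679 gene IDs. Figures were drawn with matplotlib 3.10.9.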

Additional observations from a re-analysis of the deposited data

Results flagged for a closer look

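Among 40 member and group pairs of 4 libraries, 2 had 1 library far from the other 3; chance flags about 1 in 20. Saa1 was at 381.3 CPM in HFD DTMB replicate 2, beside 41.6 to 89.7 CPM in the other 3 HFD DTMB libraries. Orm2 was at 55.59 CPM in ND replicate 2 of the MCD cohort, beside 22.7 to 25.2 CPM in the other 3.

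The diet effect differed between the cohorts (HFD minus MCD, log2, edgeR over 22 libraries) for Saa1 by 3.49, Saa2 by 3.61, Serpina3n by 0.86 and Crp by 0.66, and for Lcn2 by -2.15, the MCD effect being the larger there.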

How the results depend on the processing

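Over single members and alternatives, 1346 values kept their direction and side of the threshold, 35 lost a call, 26 gained one, 93 uncalled values changed sign and 0 called values did. Without the acinar libraries 1 ND library is left in the HFD cohort, so calls against that group could not be checked there. The totals above include that fit, and part of the 35 lost calls come from it. The rise on HFD was then 3.11 for Lcn2 and 2.43 for Saa1, beside 3.80 and 3.08 with all libraries. For HFD DTMB against vehicle, 0 members became 2 with DESeq2, 2 with library size alone and 1 with the stricter filter. Over all genes, 1978 of 15597 became 3028 and 2799 of 15597 and 2250 of 12360, in that order. With a log2 cutoff of 1, MCD diet went from 4 to 2 and the difference between cohorts from 5 to 3. Over all genes these went from 6626 to 3054 and from 5847 to 2930. For MCD DTMB against normal diet, limma-voom called 5 in place of 3, and 6954 in place of 5230 over all genes. Leaving out 1 library gave 5 to 7 members for HFD diet, 0 to 3 for HFD DTMB (3 without HFD vehicle replicate 3), 3 to 5 for MCD diet, 2 to 4 for MCD DTMB against normal diet and 3 to 7 for the difference between cohorts (3 without ND replicate 1 of the HFD cohort, 7 without ND replicate 1 of the MCD cohort). The cause of these changes was not tested.

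With a replicate block, 5 members were called for HFD diet, Orm2 (1.46, adjusted p = 0.061) and Orm3 (1.61, adjusted p = 0.0589) losing their calls; 4 were called for MCD diet, 5 for the difference between cohorts and 0 for DTMB on either diet. Same-numbered libraries were not shown to be paired: their deviations correlated between -0.39 and 0.28 (HFD cohort) and between -0.25 and 0.08 (MCD cohort).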
